A study of Arabidopsis thaliana with 13 samples.

Results

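BABY BOOM (BBM), JACKDAW (JKD), CRINKLY4 (CR4) and RCH1 are genes of the root stem cell niche and meristem, and each was sought among the probe sets that the platform's annotation assigns to exactly 1 gene with that symbol. This gave 1 probe set each for BBM (246426_at, AT5G17430), JKD (250982_at, AT5G03150) and CR4 (251521_at, AT3G59420), and none with the symbol RCH1, so that 3 of the 4 named genes were described, of 13356 genes with such a probe set in all. Neither annotation used here pairs the symbol RCH1 with a locus, so no value is given under that name, and RBR is not analysed here. The rule used names only and no measured value, but the genes were chosen with earlier results of these data known.

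The study compared transcripts of rRBr and Col-0 root tips of Arabidopsis thaliana on 13 Affymetrix ATH1 arrays. In rRBr, the RCH1 promoter drives an RNA interference construct against RETINOBLASTOMA-RELATED (RBR) locally in the root meristem, whereas Col-0, the genetic background of both lines, is the wild type. The rRBr root tips were taken at 4 das (2 arrays), 6 das (2 arrays) and 10 das (3 arrays), and the Col-0 root tips at 4 das (2 arrays), 6 das (1 array) and 10 das (3 arrays). The sample labels count these days from stratification and the paper from sowing.

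Only 1 silenced line was profiled, and each sample pooled many dissected tips, whose cells are only in part those in which the RCH1 promoter is active. In such bulk RNA, fewer cells of a type and less transcript per cell cannot be told apart. The values are log2 RMA values, in which 1 unit is a doubling, and are compared here between arrays and not between genes. Array medians lay between 5.96 and 6.06. AUR1 and AUR2, which encode Aurora kinases of dividing cells, ranked between the 68.1th and the 86.6th percentile of the probe sets on every array. The root hair genes EXPA7 and EXPA18, expansins of the hair-forming epidermal cells further up the root, had a mean of 8.80 to 8.89 on 3 arrays (replicate 1 of rRBr at 6 das, of rRBr at 10 das and of Col-0 at 10 das), against 4.69 to 7.41 on the other 10.

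The root stem cell niche consists of the rarely dividing quiescent centre and the stem cells around it, which give rise to the root cap, epidermis, ground tissue and vascular tissue. Transcription factors of the PLETHORA family, to which BBM belongs, maintain this niche and the dividing meristem along a gradient. JKD, a zinc finger protein, acts with SHORT-ROOT and SCARECROW in the ground tissue and quiescent centre, while CR4 (also known as ACR4) is a receptor kinase that restrains divisions of the columella stem cells downstream of the peptide CLE40. RBR, the plant relative of the retinoblastoma protein, limits the division of root stem cells.

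None of the 3 genes was called up- or down-regulated in rRBr over all days (limma, with limits of 0.01 on the adjusted p and 1.4 on the fold change). Among all 22746 probe sets tested, 0.418% were called. None of the 3 had an unadjusted p under 0.05 either, which 10.2% of all probe sets had. Given that background, no call among 3 probe sets is not a result about them, and their sizes and intervals say more. With all 13 arrays, the 95% confidence interval of the difference over all days lay inside the 1.4-fold limit for all 3 genes. That limit is 0.49 on the log2 scale. The BBM interval depends on the arrays kept, since the BBM difference ranged from -0.28 to -0.07 when single arrays were left out. Within single days the intervals of BBM and, at 6 das, of CR4 reached beyond the 1.4-fold limit.

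BBM, an AP2-type transcription factor that promotes cell division and embryo formation when overexpressed, had 6.00 and 5.92 on the 2 rRBr arrays and 5.93 and 6.24 on the 2 Col-0 arrays at 4 das. At 6 das it had 5.76 and 6.00 in rRBr and 6.37 on the single Col-0 array. At 10 das its values were 5.64, 6.18 and 6.08 in rRBr and 5.34, 6.31 and 6.25 in Col-0. The lines thus overlapped at 4 and 10 das, and at 6 das both rRBr arrays were below the Col-0 array, as were those of 36.4% of all probe sets. The lowest BBM value of the series was in Col-0 and the highest also, so that the wild type spanned the whole range.

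Over all days BBM averaged 5.94 ± 0.19 in rRBr (SD, n = 7) and 6.07 ± 0.39 in Col-0 (SD, n = 6). The difference of -0.13 (SE 0.15, 95% confidence interval -0.46 to 0.20) did not pass the test (limma, adjusted p = 0.84), and a two-sided exact permutation test over the 13 arrays gave p = 0.44. At its lower end this interval holds a 1.38-fold lower level in rRBr. The BBM difference was smaller than the spread of the replicates within a line and day, whose pooled SD of 0.35 lay at the 90.1th percentile of all probe sets.

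Day by day, BBM differed by -0.12 at 4 das (SE 0.31), by -0.49 at 6 das (SE 0.38) and by 0.00 at 10 das (SE 0.25), with adjusted p = 1.00, 0.93 and 1.00 (limma). The value at 6 das rests on 1 Col-0 array, whose spread had to be taken from the other groups, and its interval of -1.34 to 0.36 includes both no difference and a 2.53-fold lower level. Between 10 and 4 das BBM moved by 0.01 in rRBr (SE 0.28) and by -0.12 in Col-0 (SE 0.28). Neither change passed the test (limma, adjusted p = 1.00 in both lines).

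JKD gave the tightest values of the 3 genes, with a pooled SD within line and day of 0.05, at the 1.6th percentile of all probe sets. At 4 das JKD had 6.65 and 6.70 in rRBr, against 6.56 and 6.61 in Col-0. At 6 das it had 6.77 and 6.72 in rRBr, against 6.59 in Col-0. At 10 das it had 6.32, 6.45 and 6.44 in rRBr, against 6.54, 6.54 and 6.53 in Col-0. Every rRBr array was therefore above every Col-0 array at 4 and 6 das, as for 19.8% and 27.1% of all probe sets, and below every Col-0 array at 10 das, as for 4.81%.

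This order of the arrays, or its reverse, was found for 46 of 22746 probe sets, or 0.202%. That share is a description only, since the order was not tested against a random one. The size of the JKD shift was small on each day. JKD in rRBr was higher by 0.09 at 4 das (SE 0.07) and by 0.16 at 6 das (SE 0.09), and lower at 10 das with a difference of -0.13 (SE 0.06), a 1.1-fold difference. None of these passed the test (limma, adjusted p = 1.00, 0.93 and 0.66 in the order of the days). On these days 0.0044%, 0.0044% and 0.286% of all probe sets were called.

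The change of the JKD difference between 10 and 4 das was -0.22 (SE 0.10, 95% confidence interval -0.44 to -0.01), which had an unadjusted p of 0.04 and an adjusted p of 1.00 over all probe sets (limma). With the replicate number as a block its unadjusted p was 0.07, and with a trend and robust variance it was 0.18. An unadjusted p under 0.05 was reached by 3.06% of probe sets for that change, and 0.0044% were called at an adjusted p under 0.05. In rRBr, JKD at 10 das differed from 4 das by -0.27 (SE 0.07, unadjusted p = 0.0029, adjusted p = 0.37, limma), with every 10 das array below every 4 das array, as for 11.3% of probe sets. For that change an unadjusted p under 0.05 was reached by 5.26% of probe sets. In Col-0 the JKD change with age was -0.05 (SE 0.07, limma adjusted p = 1.00).

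Over all days the JKD levels hardly differed, with 6.58 ± 0.17 in rRBr (SD, n = 7) and 6.56 ± 0.03 in Col-0 (SD, n = 6). The difference was 0.02 (SE 0.07, 95% confidence interval -0.14 to 0.17, limma adjusted p = 0.97, two-sided exact permutation p = 0.84). A comparison of the lines over all days gives no view of a difference that changes sign with age. For JKD, the change of the difference between days did not pass the test (limma). The Col-0 arrays of JKD spanned 0.08 and the rRBr arrays 0.45, a contrast whose source, beyond the day of sampling, was not tested.

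CR4 had 5.03 and 5.13 in rRBr and 5.13 and 5.03 in Col-0 at 4 das. At 6 das it had 5.02 and 5.03 in rRBr and 5.16 in Col-0. At 10 das the CR4 values were 4.85, 5.38 and 5.14 in rRBr and 4.74, 5.33 and 5.12 in Col-0. The replicates of 10 das had the same order in both lines, with replicate 1 lowest and replicate 2 highest, and the lines overlapped at 4 and 10 das.

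Over all days CR4 averaged 5.08 ± 0.16 in rRBr (SD, n = 7) and 5.09 ± 0.20 in Col-0 (SD, n = 6), with a difference of -0.0021 (SE 0.09, 95% confidence interval -0.21 to 0.20, limma adjusted p = 1.00, two-sided exact permutation p = 0.99). The interval leaves room for a CR4 level up to 1.15-fold higher or lower in rRBr. By day, CR4 differed by 0.00 at 4 das (SE 0.20), by -0.14 at 6 das (SE 0.24) and by 0.06 at 10 das (SE 0.16). With age it moved by 0.04 in rRBr (SE 0.18) and by -0.02 in Col-0 (SE 0.18), and the limma adjusted p lay between 0.948 and 1.00 for these contrasts.

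**Figure D1:**
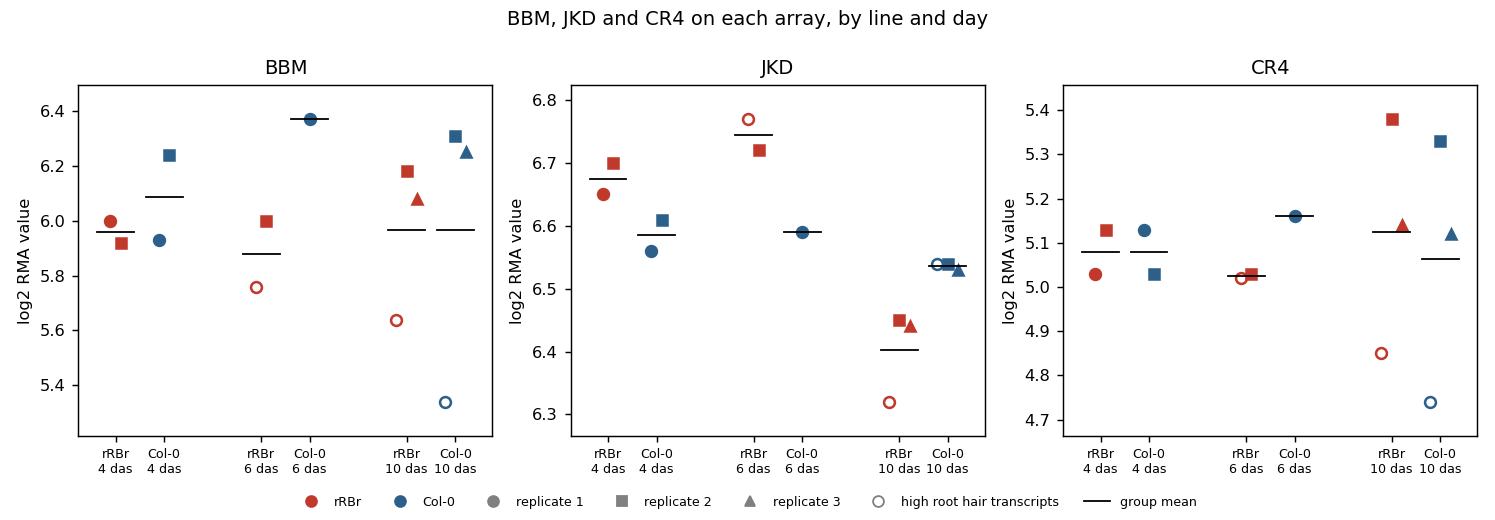
The log2 RMA values of BBM, JKD and CR4 on each of the 13 arrays (points, shape by replicate number) are plotted by line and day, with the mean of each group as a bar, open points for the 3 arrays with high root hair transcripts and an axis of its own for each gene. For JKD the rRBr points lie above Col-0 at 4 and 6 das and below at 10 das, while the BBM and CR4 points of the lines overlap at 4 and 10 das.

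Rearing was repeated with both lines side by side, so arrays of the same day and replicate number were also set against each other. JKD in rRBr minus Col-0 was 0.09 and 0.09 at 4 das, 0.18 at 6 das and -0.22, -0.09 and -0.09 at 10 das. For BBM the same differences were 0.07 and -0.32 at 4 das, -0.61 at 6 das and 0.30, -0.13 and -0.17 at 10 das. JKD thus had a single sign within each day, and BBM had both signs at 4 and at 10 das.

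CR4 differed within these pairs by -0.10 and 0.10 at 4 das, by -0.14 at 6 das and by 0.11, 0.05 and 0.02 at 10 das. At 10 das all 3 CR4 pairs were higher in rRBr, by at most 0.11, whereas the CR4 values of replicates of one line on that day were up to 0.59 apart. On that day the pairs thus differed less than the replicates did.

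**Figure D2:**
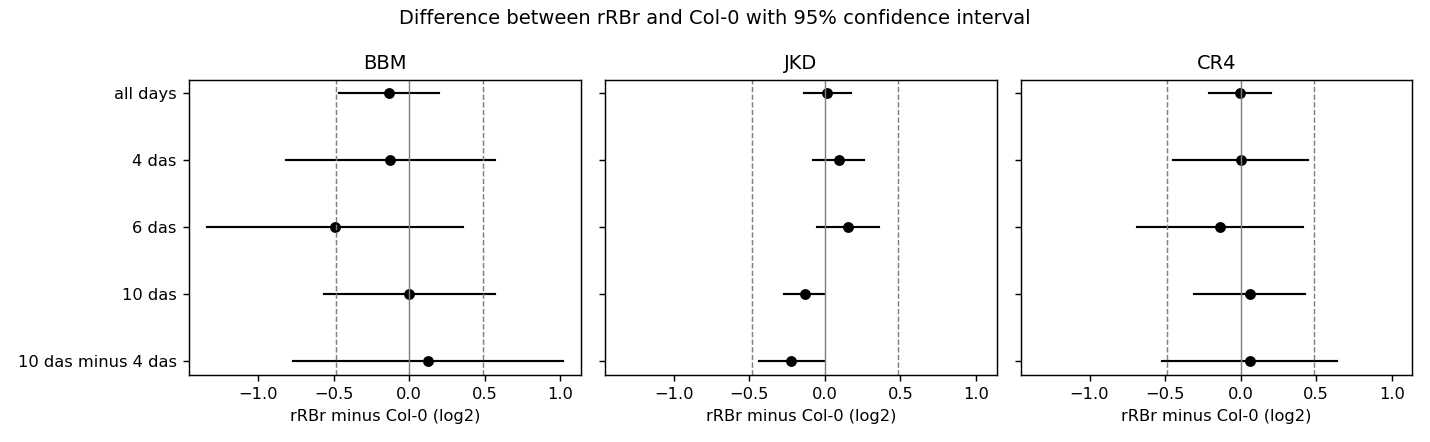
Differences between rRBr and Col-0 on the log2 scale (points) with 95% confidence intervals (lines) are plotted for BBM, JKD and CR4 over all days, at 4, 6 and 10 das, and for the change of the difference between 10 and 4 das, with dashed lines at the 1.4-fold limit of 0.49 in either direction. The intervals over all days stay within the dashed lines, and the widest is that of BBM for the change between days, from -0.77 to 1.02.

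The 3 arrays with high root hair transcripts were also the 3 lowest for BBM, with 5.34 to 5.76, against 5.92 to 6.37 on the other 10. They were the 3 lowest for CR4 as well, with 4.74 to 5.02, against 5.03 to 5.38. The same holds for 10.3% of all probe sets. JKD values on them, at 6.32 to 6.77, were not set apart from its 6.44 to 6.72 elsewhere.

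The mean on these 3 arrays minus that on the other 10 was -0.55 for BBM, -0.28 for CR4 and -0.04 for JKD. Both lines contributed to them, with 2 rRBr arrays and 1 Col-0 array. Without these 3 arrays the range of BBM over the series was 0.45, against 1.03 with them, and its difference over all days was -0.18 (limma, unadjusted p = 0.05, adjusted p = 0.45). The differences of JKD and CR4 over all days were then 0.03 and -0.01. EXPA7 and EXPA18 are 2 of 8 root hair genes listed, the others having no probe set of their own in the annotation used here. The part of the hair-bearing tissue in the BBM and CR4 values was not tested.

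**Figure D3:**
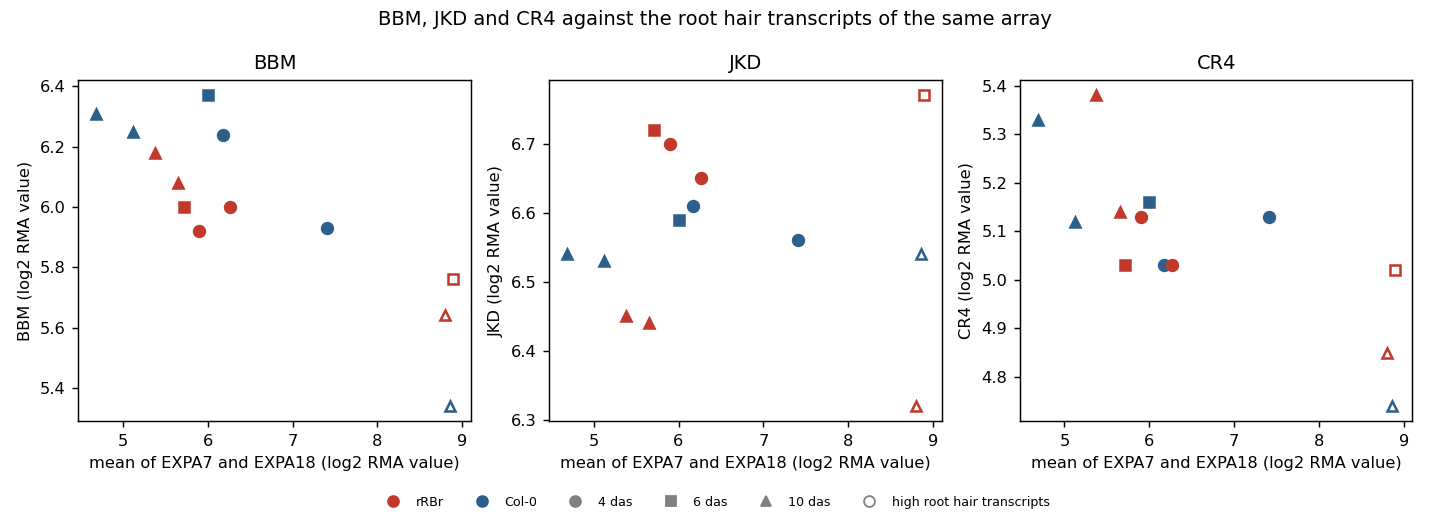
The log2 RMA values of BBM, JKD and CR4 are plotted against the mean of the root hair transcripts EXPA7 and EXPA18 on the same array, also in log2 RMA values, with 1 point per array, colour for the line, shape for the day and open points for the 3 arrays with high root hair transcripts. These 3 arrays, at 8.80 to 8.89 on the horizontal axis, hold the 3 lowest values of BBM and of CR4, but both the lowest and the highest value of JKD.

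BBM and CR4 varied together over the arrays, with a Pearson correlation of 0.80 over the 13 arrays, and of 0.39 over the 10 arrays without high root hair transcripts. JKD correlated with BBM at 0.04 and with CR4 at -0.01 over the 13 arrays, and at -0.40 and -0.63 over the 10. These correlations describe arrays that share days, replicate numbers and normalization and carry no test.

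The patterns most like that of each gene were sought among genes with a single-gene probe set and a mean above that of the median probe set (6145 candidates for BBM and CR4, and 6144 for JKD). BBM was most like AT2G34750 (r = 0.95), AT1G48950 (r = 0.94) and AT5G48940 (r = 0.93), and over the 10 arrays these had 0.88, 0.80 and 0.78. CR4 was most like AT3G18940 (r = 0.92), AT2G03270 (r = 0.91) and AT5G48940 (r = 0.91), with 0.90, 0.90 and 0.72 over the 10 arrays. AT5G48940 thus stood among the 3 closest of both genes. JKD was most like AT1G78890 (r = 0.85), AT1G26940 (r = 0.83) and AT1G17430 (r = 0.81), with 0.82, 0.84 and 0.68 over the 10 arrays.

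Of 95 other genes in lists of niche regulators, ground tissue patterning genes, CLE and RGF peptide signalling genes, PIN auxin carriers, mitotic genes and tissue markers, 8 had a probe set of their own under a symbol that the annotations give, and none of these 8 was called over all days in either direction. Their median difference was 0.16, against -0.01 for all probe sets. That median mixes niche, mitotic and root hair genes, of which EXPA7 and EXPA18 differed by 0.22 (SE 0.79) and 0.35 (SE 0.77). AGL42, SCL23 and CLE40 had differences below 0. A further 8 relatives of BBM, JKD and CR4 pathway genes, added once the annotated names had been seen, also gave no call. With 0.418% of all probe sets called, no call among so few genes is not a result about them. The 16 genes together had a median of -0.001. Of them, 2 (CLE41 and CLV3) had an unadjusted p under 0.05 (limma), as had 10.2% of all probe sets. Most of the lists' best known members, among them the other PLETHORA genes and the PIN genes, had no probe set of their own in the annotation. They were therefore not analysed here. BRN2, a root cap gene left out in this way, is among the genes that the paper reports as up-regulated in rRBr.

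AGL42, a MADS-box gene known for its expression in the quiescent centre, was 1 of the 2 niche regulators named in this way. In rRBr it had 3.80 and 4.42 at 4 das, then 6.03 and 5.89 at 6 das, and 6.76, 6.22 and 6.20 at 10 das. In Col-0 it had 4.09 and 4.00 at 4 das, then 6.08 at 6 das, and 7.16, 7.03 and 6.63 at 10 das. AGL42 was thus higher at each later day in both lines, with no overlap between days.

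In rRBr, AGL42 at 10 das was higher than at 4 das by 2.28 (SE 0.23), a 4.87-fold difference whose adjusted p of 0.02 missed the limit of 0.01 (limma), a limit that 0% of probe sets passed in that line. In Col-0 it rose with age by 2.90 (SE 0.23), which is 7.44-fold, and was called (limma, adjusted p = 0.0025), together with 0.0308% of all probe sets. That call was lost without replicate 1 or 2 of Col-0 at 4 das (adjusted p = 0.03 and 0.06) or at 10 das (adjusted p = 0.01 and 0.02), each above the limit of 0.01, at a size of 2.79 to 2.94. The difference between the lines in this rise was -0.61 (SE 0.33, limma adjusted p = 1.00), so that the rise is not shown to differ between the lines. It was -0.92 without replicate 1 and -0.30 without replicate 2 of rRBr at 4 das.

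At 10 das, AGL42 averaged 6.39 ± 0.32 in rRBr and 6.94 ± 0.28 in Col-0 (SD, n = 3 each). The difference of -0.55 (SE 0.21, unadjusted p = 0.03, adjusted p = 0.50, limma) did not pass the test, and an unadjusted p under 0.05 was reached by 7.8% of probe sets on that day. AGL42 was lower in rRBr in each of the 3 pairs of replicates at 10 das, with differences of -0.40, -0.81 and -0.43. The highest rRBr array of that day lay above the lowest Col-0 array. At 4 das the AGL42 pairs differed by -0.29 and 0.42, and at 6 das by -0.05. Its 4 das values lay between the 13.1th and the 30.1th percentile of the probe sets. Over all days the AGL42 difference was -0.21 (SE 0.63, limma adjusted p = 0.95), with the change with age inside that error.

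UPB1, a bHLH factor that controls the balance of reactive oxygen species at the end of the meristem, had a lowest, median and highest value of 8.15, 8.93 and 10.14 in rRBr and of 8.27, 8.76 and 9.19 in Col-0. Its difference of 0.29 (SE 0.30) did not pass the test (limma, adjusted p = 0.82). The 2 highest rRBr values, 10.14 and 9.83, were on the arrays with high root hair transcripts, and without these and the third such array the difference was -0.06.

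SCL23, a GRAS factor close to SCARECROW, was the only ground tissue gene of the list with a probe set of its own under an annotated symbol and spanned 5.30 to 5.34 in rRBr and 5.19 to 5.61 in Col-0, with a difference of -0.05 (SE 0.06, limma adjusted p = 0.84). CLE40, the peptide gene upstream of CR4, lay between the 0.4th and the 5.2th percentile of the probe sets on each array, with 3.27 to 3.39 in rRBr and 3.16 to 3.53 in Col-0. At that level a difference of -0.02 (SE 0.06, limma adjusted p = 0.95) cannot be read as a difference in transcript.

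**Figure D4:**
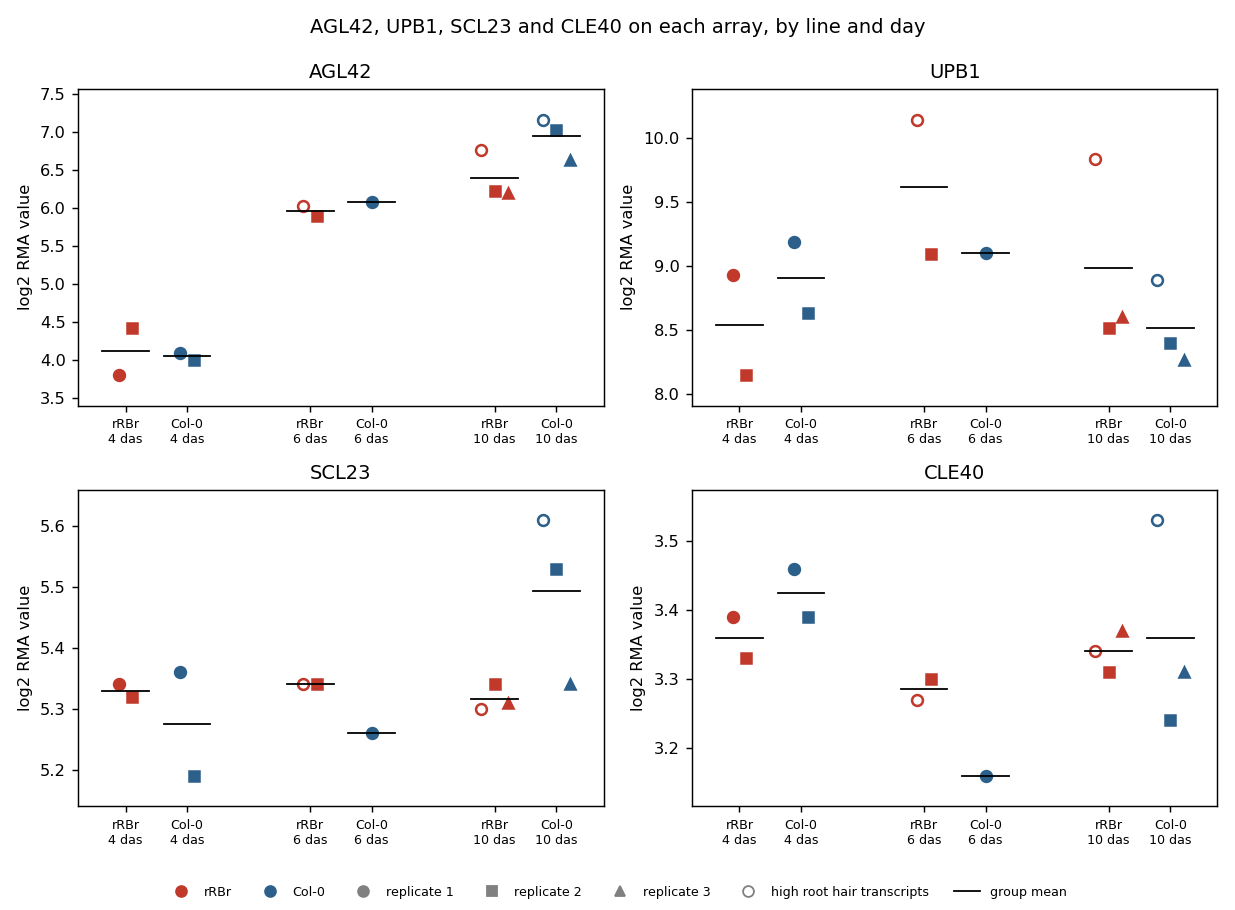
The log2 RMA values of AGL42, UPB1, SCL23 and CLE40 on each array are plotted by line and day in the same way as those of BBM, JKD and CR4, each gene with an axis of its own. AGL42 is higher at each later day in both lines, with means of 4.11 in rRBr and 4.05 in Col-0 at 4 das and of 6.39 in rRBr and 6.94 in Col-0 at 10 das, and the SCL23 points of rRBr lie within 0.04 of each other.

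Among the relatives added by name, the largest difference over all days was that of CLE41, a CLE peptide gene of the vascular tissue, with 4.97 ± 0.16 in rRBr (SD, n = 7) and 4.77 ± 0.14 in Col-0 (SD, n = 6). That difference of 0.21 (SE 0.08, unadjusted p = 0.03, adjusted p = 0.38, limma) did not pass the test, and neither did those of CLV3, the shoot meristem peptide gene (0.12, adjusted p = 0.45), and of SCL21, another GRAS factor (-0.16, adjusted p = 0.67). IDD16, a zinc finger gene of the family of JKD, had a difference of -0.05 (SE 0.05, limma adjusted p = 0.80). The share of 10.2% of all probe sets with an unadjusted p under 0.05 is the background for CLE41 and CLV3. CLV3 was low on each array, between the 18.9th and the 27.7th percentile of the probe sets. The mitotic genes AUR1 and AUR2 differed by 0.16 and 0.16 (limma, adjusted p = 0.70 and 0.79).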

How the data were processed

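RNA of dissected root tips was hybridised to 13 ATH1 arrays (7 rRBr, 6 Col-0). The authors made the deposited log2 values per probe set with RMA in the affy package of Bioconductor, whose versions are not given in the sources used here, and did not pool replicates. RMA pulls low values together, so small fold changes of weak genes may be understated. The values were used as deposited, without 64 control probe sets. Probe sets were named through the platform annotation and the RefSeq annotation of TAIR10.1, and no sequence was used. In R 4.3.3, limma 3.58.1 was fitted to all 22746 probe sets with the Benjamini-Hochberg adjustment, once with 2 groups (rRBr, Col-0) and once with 6 groups of line and day, which share 1 estimate of the spread. Calls needed a fold change of 1.4 or more with an adjusted p below 0.01, and for the change of the difference between days an adjusted p under 0.05. The script was tested on simulated data. The members and gene lists were chosen with earlier results of these data known. Of each list the text names the called genes or the one with the largest difference, and, for each member, the 3 genes with the likest pattern. AGL42, SCL23, CLE40, the relatives and AUR1 and AUR2 beyond that were named after their values were seen.

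The growth protocol states that both lines were germinated together in repeats. Arrays of the 2 lines with the same replicate number deviated together from their group means (r = 0.18 at 4 das, and 0.79, 0.60 and 0.63 at 10 das). Unlike numbers at 10 das gave r = 0.56 and 0.41 between replicates 2 and 3, and -0.72 to -0.60 with replicate 1. Replicate 1 of both lines on that day was high in root hair transcripts. At 4 das the 2 deviations of a line mirror each other, so that r is a single value of either sign. The numbers were taken to pair the samples, and a fit with the replicate number as a block was run as an alternative. The p-values of the fit of 6 groups measure the spread between arrays labelled as biological replicates. Those of the fit of 2 groups and of the permutation test also take in the change between days, since neither holds the day fixed. The arrays give no counts, and their number limits the precision. The other alternatives were day as a factor, array weights, a trend and robust variance, renewed quantile normalization, centring on medians, a filter on low values, no fold limit, the 10 das arrays alone, and the omission of each array in turn, of the 6 das arrays or of the 3 arrays high in root hair transcripts.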

Additional observations from a re-analysis of the deposited data

Results flagged for a closer look

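The difference of JKD between rRBr and Col-0 changed between 10 and 4 das by -0.22, since every rRBr array was above Col-0 at 4 das and below it at 10 das. The change was tested and had an unadjusted p of 0.04 and an adjusted p of 1.00 (limma), and unadjusted p of 0.07 with the replicate block and 0.18 with a trend and robust variance. Single arrays far from the others of their line were found in 3 of 38 groups of arrays examined, judged by Dixon's 95% critical value, a limit that chance passes in about 5% of groups. AUR1 had 8.19 and AUR2 had 7.45 on replicate 1 of Col-0 at 10 das, each the lowest Col-0 value, and this array is 1 of the 3 with high root hair transcripts. CLE27, a CLE peptide gene, had 5.32 on replicate 2 of Col-0 at 10 das, against 4.83 to 4.99 on the other Col-0 arrays.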

How the results depend on the processing

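None of BBM, JKD and CR4 was called over all days under any alternative run. Of 762 alternative values, which include counts of called genes, 719 kept their direction and their side of the limit, or their count. Of the 429 for BBM, JKD and CR4, 399 did. Very small differences, such as those of CR4 over all days and of BBM at 10 das, were given no direction. A change of their sign was therefore counted as kept. All the sign changes concern differences that did not pass the test. In the paired fit, with a block for the replicate number, BBM over all days differed by -0.15 (limma adjusted p = 0.69), BBM at 6 das by -0.69 (unadjusted p = 0.03, adjusted p = 0.26), and BBM between 10 and 4 das in rRBr by -0.093. The block changed no call. The JKD difference over all days was -0.0078 with the block and day together, -0.0069 with arrays centred on their medians and -0.044 without the 6 das arrays. BBM between 10 and 4 das in rRBr was -0.028 after renewed quantile normalization and -0.015 after centring. With array weights, the change of the BBM difference between days was -0.0068, the change with age in Col-0 was 0.12 for BBM and 0.050 for CR4, and CLE40 differed by 0.017. Without the 3 arrays with high root hair transcripts these 4 values were -0.025, 0.20, 0.15 and 0.028, and UPB1 was -0.06. AGL42 between 10 and 4 das in rRBr passed the limit with array weights (2.16, adjusted p = 0.0026) and with a trend and robust variance (2.28, adjusted p = 0.0075). The cause was not tested for any of these.

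Leaving out single arrays, the difference over all days ranged from -0.28 to -0.07 for BBM, -0.015 to 0.060 for JKD, -0.07 to 0.05 for CR4, -0.58 to 0.088 for AGL42 and -0.056 to 0.018 for CLE40. At 4 das it ranged from -0.28 to 0.03 for BBM and -0.05 to 0.05 for CR4, and at 10 das from -0.31 to 0.17 for BBM and -0.10 to 0.20 for CR4. Its change between days ranged from -0.19 to 0.30 for BBM and -0.10 to 0.20 for CR4. Between 10 and 4 das, BBM ranged from -0.10 to 0.17 in rRBr and -0.29 to 0.20 in Col-0, CR4 from -0.085 to 0.18 in rRBr and -0.15 to 0.15 in Col-0, and AGL42 from 2.79 to 3.05 in Col-0, with a difference between the lines in that change of -0.92 to -0.30. No value at 6 das could be had without the only Col-0 array of that day, nor for CLE40 and CLV3 with the filter on low values, which removes them. With 1 to 3 arrays per line and day, BBM differences under 0.57 at 10 das lie inside the interval and were not detectable.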
